A study of Homo sapiens with 4 samples.

Results

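The genes described here are the fibrinogen chain genes FGA, FGB and FGG, the fibrinogen-like gene FGL1, the antitrypsin gene SERPINA1, and the transcription factor genes HNF4A, FOXA1 and FOXA2. They were taken by name, after gene identifiers had been matched to symbols, and are 8 of the 58735 genes in the table. RNA-seq was done on A549 (so labelled; a line derived from a human lung adenocarcinoma) of wild-type genotype, grown in DMEM with fetal bovine serum and sorted by flow cytometry on surface ICAM1 with no other treatment named. The groups are 2 libraries of the ICAM1-high subset and 2 of the ICAM1-low subset. Nothing in the labels ties these libraries to separate cultures. The p-values therefore measure library-to-library spread, which may be technical.

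Fibrinogen is a plasma glycoprotein built from a pair each of Aα, Bβ and γ chains, encoded by FGA, FGB and FGG, and thrombin turns it into fibrin. Hepatocytes make most of it, under liver-enriched factors such as C/EBP, HNF4 and FOXA proteins and with induction by interleukin-6 through STAT3. A549 is known as a lung line that transcribes fibrinogen genes, and fibrinogen is a known ligand of ICAM1. SERPINA1, another hepatocyte product, encodes the main plasma inhibitor of neutrophil elastase, and FGL1 encodes a secreted protein with a fibrinogen-like domain that binds the T cell receptor LAG3.

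The chain genes lie side by side on chromosome 4 (GRCh38), FGB at 154562956 to 154571086 on the plus strand, FGA at 154583126 to 154590766 and FGG at 154604134 to 154612967 on the minus strand. Their promoter windows are shown because the chains are compared with each other below, and the downstream HNF4A window is shown because HNF4A has more than 1 start, which counts per gene cannot separate. Each window, from RefSeq on GRCh38.p14, runs from 250 bases before a start site to 50 after it, 5′ to 3′ on the gene's strand. Capitals mark matches, on either strand, to CTGGGAA (the core of an interleukin-6 response element), TTGCNNAA (C/EBP), TGTTTAC or TGTTTGC (FOXA) and CAAAGTCCA (HNF4). No match overlapped another. The windows are FGA at chr4:154590693-154590992 (minus), FGB at chr4:154562730-154563029 (plus), FGG at chr4:154612607-154612906 (minus) and HNF4A at chr20:44400989-44401288 (plus).
FGA: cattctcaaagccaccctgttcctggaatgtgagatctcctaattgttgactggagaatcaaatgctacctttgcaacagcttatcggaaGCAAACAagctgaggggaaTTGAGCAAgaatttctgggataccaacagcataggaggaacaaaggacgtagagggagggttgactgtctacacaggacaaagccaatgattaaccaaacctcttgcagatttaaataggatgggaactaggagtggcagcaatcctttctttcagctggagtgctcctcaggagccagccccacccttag
FGB: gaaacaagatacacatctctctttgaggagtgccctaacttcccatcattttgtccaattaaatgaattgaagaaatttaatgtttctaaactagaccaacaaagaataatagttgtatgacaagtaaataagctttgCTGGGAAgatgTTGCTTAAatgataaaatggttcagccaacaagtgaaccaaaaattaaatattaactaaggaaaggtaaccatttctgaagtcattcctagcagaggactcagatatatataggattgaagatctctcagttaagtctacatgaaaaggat
FGG: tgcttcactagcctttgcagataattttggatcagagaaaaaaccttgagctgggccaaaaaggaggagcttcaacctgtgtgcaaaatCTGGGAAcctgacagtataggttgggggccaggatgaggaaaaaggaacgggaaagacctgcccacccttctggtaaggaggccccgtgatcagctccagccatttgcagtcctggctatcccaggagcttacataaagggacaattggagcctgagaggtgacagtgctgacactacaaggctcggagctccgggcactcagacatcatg
HNF4A: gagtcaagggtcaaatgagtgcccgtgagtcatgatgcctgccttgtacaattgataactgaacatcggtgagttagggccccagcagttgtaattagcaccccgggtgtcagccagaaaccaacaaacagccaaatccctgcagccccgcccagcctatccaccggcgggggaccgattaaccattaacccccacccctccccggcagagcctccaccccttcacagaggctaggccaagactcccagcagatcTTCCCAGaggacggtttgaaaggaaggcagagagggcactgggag
The interleukin-6 letters began at -112 in FGB, counted from the start site, and at -161 in FGG, and were not matched in FGA. A C/EBP match began at -141 in FGA and at -101 in FGB, and a FOXA match at -160 in FGA. The HNF4A window held the interleukin-6 letters at position 6 after the start, on the opposite strand, and the upstream HNF4A window, not shown, held 0 matches. Among the other windows not shown, a FOXA match began at -108 in 1 of 2 SERPINA1 windows and at -235 in FOXA1. The second FGB window overlaps the one shown and holds the same matches, at -143 and -132 from its own start. Among 35116 RefSeq windows of this length, 10.8% held CTGGGAA, 10.5% TTGCNNAA, 3.42% TGTTTAC, 3.89% TGTTTGC and 0.384% CAAAGTCCA. A match describes letters only, and no binding was measured here. Windows were matched for 6 of the 8 genes, FGL1 and FOXA2 being the others.

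Gene counts summed to 17638647 and 17271825 per library for ICAM1-high cells and to 16665362 and 16272591 for ICAM1-low cells. ICAM1, the sorting marker, was at 116 and 110.4 CPM in ICAM1-high cells and at 4.61 and 4.89 CPM in ICAM1-low cells, where CPM are counts per 1e6 after TMM scaling. The counts also go against the cell line label at a locus that A549 is known to lack. CDKN2A had 1009 and 1214 counts in the libraries labelled ICAM1-high and 0 in both labelled ICAM1-low, CDKN2B 174 and 182 against 0, and MTAP 459 and 463 against 1 and 8. Over all genes tested, 30.4% were called higher and 29.4% lower in ICAM1-high cells, by the test given below. Fibroblast markers summed to 83.9 to 94.8 CPM in ICAM1-high cells and 51.1 to 55.7 CPM in ICAM1-low cells. The largest part of both sums was FBLN1, at 48.8 CPM in ICAM1-high cells and 42.9 CPM in ICAM1-low cells (log2 fold change 0.19). Of 9 fibroblast markers tested (of 14 listed), 6 were higher and 0 lower, 4 of the 9 being abundant enough to test in ICAM1-high alone. Without ICAM1-high replicate 2 or ICAM1-low replicate 1, and with DESeq2, 3 were higher. The collagen gene COL1A1 had 1056 counts in ICAM1-high cells and 126 in ICAM1-low cells (log2 fold change 2.81), LUM had 99 against 8, FAP 42 against 1 and PDGFRB 26 against 5, the last 3 being among those tested through ICAM1-high alone. TAGLN (log2 fold change 0.01), PDGFRA (-0.03) and THY1 (0.58) were tested and not called. POSTN and DPT were at 0 in all libraries, and COL1A2 and COL3A1 at 0 in ICAM1-high cells. Endothelial markers summed to 52.1 to 56.9 against 37.0 to 40.2 CPM, with 4 higher and 1 lower of 6 tested (of 14), 2 of them (ERG and CDH5) passing through ICAM1-high alone. ENG had 630 counts in ICAM1-high cells and 108 in ICAM1-low cells (2.29), PECAM1 133 against 26 (2.09), ERG 89 against 0 and CDH5 64 against 1. EGFL7, named after its values were seen, was at 25.8 against 29.4 CPM and was not called. In ICAM1-high cells VWF and KDR had 5 counts each, TEK and EMCN 3 each, TIE1 and PLVAP 1 each and CLDN5 8. FLT1 was at 0 in all libraries. The lower gene was ESAM, with 118 counts in ICAM1-high cells and 148 in ICAM1-low cells (-0.58). The lower call was lost without ICAM1-high replicate 1 or ICAM1-low replicate 2, with DESeq2 and with library size alone, and 2 were lower without ICAM1-low replicate 1. Of 14 leukocyte markers, CD14 was higher and ITGAM lower, the only 2 tested, ITGAM not being called without ICAM1-high replicate 2, with DESeq2 or with library size alone, and PTPRC, CD3E and MS4A1 were at 0. These differences accompany every result below, and their part in them was not tested.

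The fibrinogen chain genes were abundant in both subsets, with FGB 1.28-fold and FGG 1.07-fold lower in ICAM1-high cells and FGA not called. The FGG call was lost with DESeq2, and its sign turned with scaling by library size alone, whereas the FGB call held. Of 16250 genes tested, 59.7% were called different between the subsets, 30.4% as higher and 29.4% as lower in ICAM1-high cells, at a Benjamini-Hochberg adjusted p under 0.05 in edgeR's quasi-likelihood test. These shares are the background to each count of called genes in a list. Of the 8 genes, HNF4A, FOXA1 and SERPINA1 were higher, FGB, FGG, FGL1 and FOXA2 were lower, and FGA was not called. The median log2 fold change of the 8 was -0.08, and that of all genes tested was 0.01. In sorted bulk RNA, fewer cells that transcribe a gene and less of its RNA per cell cannot be told apart. Nor can either be told apart from other cells in a subset, given the CDKN2A, CDKN2B and MTAP counts above.

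**Figure D1:**
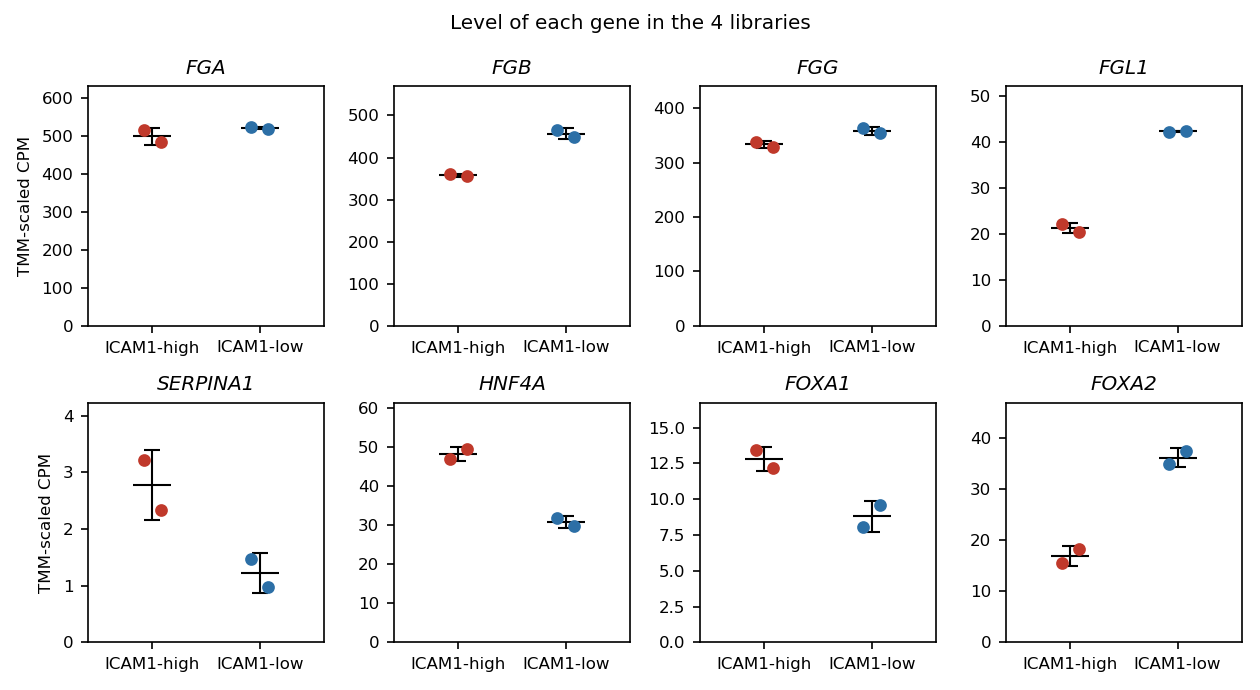
Level of each gene in TMM-scaled CPM (vertical axes, each from 0) in the 2 ICAM1-high (red) and 2 ICAM1-low (blue) libraries. Black lines are means and error bars the SD of 2 libraries. FGA sits between 484 and 523 CPM in all 4 libraries, FGL1 and FOXA2 are lower in ICAM1-high cells and HNF4A is higher.

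FGA (ENSG00000171560), whose Aα chain carries fibrinopeptide A, had 9603 and 8880 counts in ICAM1-high cells and 8173 and 7945 in ICAM1-low cells. In CPM it was at 515 and 484 in ICAM1-high cells and at 523 and 518 in ICAM1-low cells. The ICAM1-low values stood together just above the higher ICAM1-high library, and the ICAM1-high libraries lay farther from each other than that. FGA averaged 499 ± 22.4 CPM in ICAM1-high cells and 520.4 ± 3.34 CPM in ICAM1-low cells (SD, n = 2 each), a log2 fold change of -0.06 with a 95% interval of -0.14 to 0.02 (edgeR adjusted p = 0.2). Its direction depends on the scaling. With library size alone it was 0.11 (adjusted p = 0.0078), and without ICAM1-high replicate 1 it was -0.11 (adjusted p = 0.00247).

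FGB (ENSG00000171564) encodes the Bβ chain, whose synthesis is often described as limiting for fibrinogen assembly in hepatocytes. It had 6707 and 6526 counts in ICAM1-high cells and 7279 and 6869 in ICAM1-low cells, or 359.9 and 355 CPM in ICAM1-high cells against 466 and 448 CPM in ICAM1-low cells. Both ICAM1-high libraries were below both ICAM1-low libraries, by far more than the spread within a subset. The mean was 358 ± 3.18 CPM in ICAM1-high cells and 457 ± 12.5 CPM in ICAM1-low cells (SD, n = 2 each), so FGB fell by 0.35 on the log2 scale (SE 0.04, edgeR adjusted p = 8.3e-12). It was called lower under all 12 alternatives, at -0.39 to -0.18, the smallest change being that with scaling by library size alone.

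FGG (ENSG00000171557) encodes the γ chain, which holds separate segments known to bind ICAM1 and the platelet integrin. It was at 338 and 329 CPM in ICAM1-high cells and at 363 and 354 CPM in ICAM1-low cells, without overlap but with a narrow gap. It averaged 333 ± 6.45 CPM in ICAM1-high cells and 358 ± 6.86 CPM in ICAM1-low cells (SD, n = 2 each), a log2 fold change of -0.10 (SE 0.04, edgeR adjusted p = 0.025). That call was lost without ICAM1-low replicate 1 (adjusted p = 0.25) or replicate 2 (adjusted p = 0.0845), and with DESeq2 (adjusted p = 0.052). Scaling by library size alone turned its sign to 0.07 (adjusted p = 0.128).

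The balance between the chains can be read inside each library, where scaling does not enter. FGA had 1.43 and 1.36 counts per FGB count in the ICAM1-high libraries, against 1.12 and 1.16 in the ICAM1-low libraries. FGG had 0.939 and 0.925 counts per FGB count in ICAM1-high cells, against 0.78 and 0.789 in ICAM1-low cells. Both ratios were higher in each ICAM1-high library than in either ICAM1-low one. The ratio of FGA to FGG was 1.52 and 1.47 in ICAM1-high cells and 1.44 and 1.47 in ICAM1-low cells, with almost no gap. In an exact two-sided permutation test over the 4 libraries, all 5 ratios computed here gave p = 0.333, the smallest that 2 against 2 can give, also after Benjamini-Hochberg adjustment. The chains together took 0.128% and 0.124% of all counts in ICAM1-high cells and 0.127% and 0.124% in ICAM1-low cells, with 95% Clopper-Pearson intervals from 0.123% to 0.13%, which cover counting error only.

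**Figure D2:**
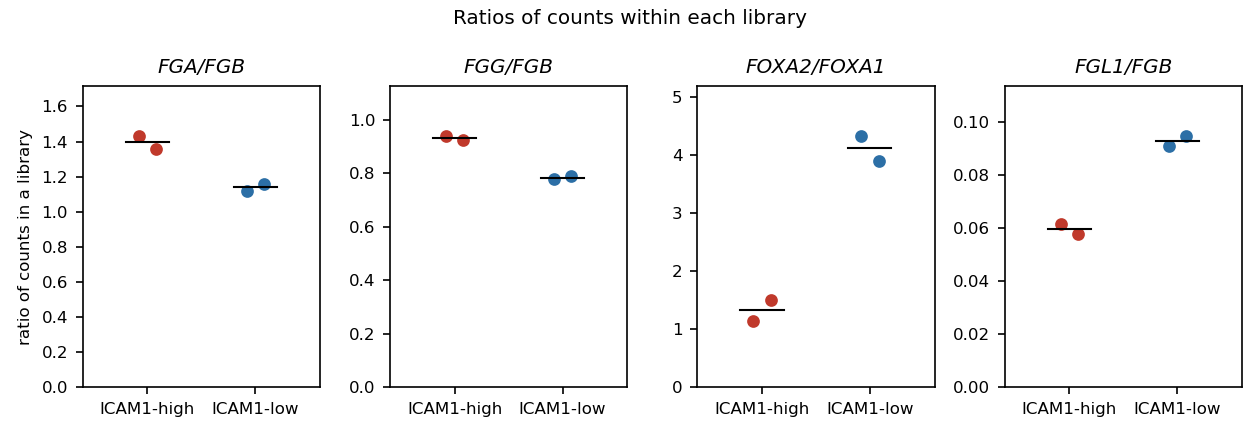
Ratios of raw counts within each library (vertical axes, each from 0) for FGA to FGB, FGG to FGB, FOXA2 to FOXA1 and FGL1 to FGB, with 2 ICAM1-high (red) and 2 ICAM1-low (blue) libraries each and lines at the means. The FOXA2 to FOXA1 ratio is 1.15 and 1.5 in ICAM1-high cells and 4.32 and 3.9 in ICAM1-low cells.

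Levels of different genes were compared as CPM per kilobase of exon. Over the union of annotated exons, FGB was at 132 ± 1.18, FGA at 126 ± 5.67 and FGG at 92.6 ± 1.79 CPM per kilobase in ICAM1-high cells (SD, n = 2 each). There FGB, at 133 and 131, lay above FGA, at 130 and 122, with a narrow gap between the nearest libraries. In ICAM1-low the order was FGB at 169 ± 4.62, FGA at 132 ± 0.844 and FGG at 99.5 ± 1.91 CPM per kilobase, each apart from the next. These orders depend on the length used. Per kilobase of the longest coding transcript, FGG was first in ICAM1-high cells (189, against 181 for FGB and 136 for FGA) and FGB in ICAM1-low cells (231, against 204 for FGG and 141 for FGA). The other genes were far lower on the exon-union scale. In ICAM1-high, HNF4A at 6.59 ± 0.257, FOXA2 at 6.47 ± 0.758 and FGL1 at 6.46 ± 0.338 CPM per kilobase did not differ beyond their spread. In ICAM1-low, FOXA2 at 13.9 ± 0.697 and FGL1 at 12.8 ± 0.0222 lay above HNF4A at 4.21 ± 0.199. FOXA1 followed at 3.22 ± 0.216 in ICAM1-high cells and 2.22 ± 0.271 in ICAM1-low cells, and SERPINA1 was last at 0.567 ± 0.127 and 0.25 ± 0.0711 CPM per kilobase.

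**Figure D3:**
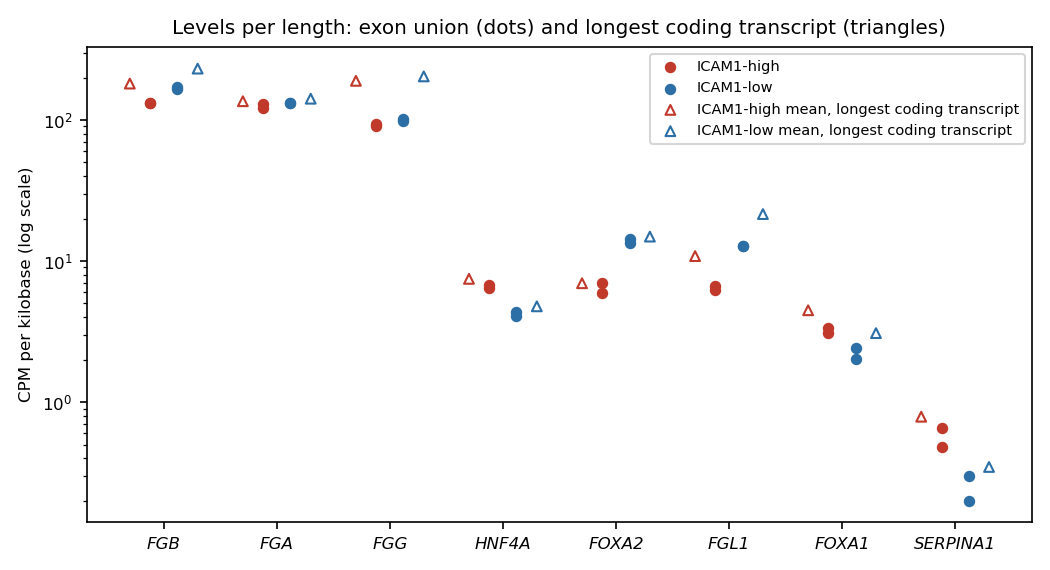
Level of each gene in CPM per kilobase on a log axis, ordered by the ICAM1-high mean. Dots are the libraries per kilobase of exon union (ICAM1-high red, ICAM1-low blue) and triangles the subset means per kilobase of the longest coding transcript. The chains lie near or above 100 and SERPINA1 below 1.

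FGL1 (ENSG00000104760, chromosome 8, 17864380 to 17910365) was 1.98-fold lower in ICAM1-high cells. It had 412 and 377 counts in ICAM1-high cells and 661 and 650 in ICAM1-low cells, or 22.1 and 20.5 CPM against 42.3 and 42.4 CPM. The subsets did not overlap, and the ICAM1-low libraries were nearly equal. FGL1 fell by 0.99 on the log2 scale (SE 0.09, edgeR adjusted p = 2.36e-16), and was called lower under all 12 alternatives, at -1.05 to -0.82. Per FGB count, FGL1 had 0.0614 and 0.0578 counts in ICAM1-high cells and 0.0908 and 0.0946 in ICAM1-low cells. LAG3, its receptor, had 36 counts in ICAM1-high cells and 18 in ICAM1-low cells and was not called (adjusted p = 0.189).

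SERPINA1 (ENSG00000197249, chromosome 14, 94376747 to 94390693) was scarce in all libraries. It had 60 and 43 counts in ICAM1-high cells and 23 and 15 in ICAM1-low cells, or 3.22 and 2.34 CPM against 1.47 and 0.978 CPM. The subsets did not overlap, although the ICAM1-high libraries lay as far from each other as from the nearest ICAM1-low library. Its log2 fold change was 1.18 with a wide 95% interval of 0.53 to 1.82 (edgeR adjusted p = 0.00124). It no longer passed without ICAM1-high replicate 1 (0.92, adjusted p = 0.0612) or in DESeq2 (adjusted p = 0.0714). Of the 10 genes of the SERPINA cluster on chromosome 14, SERPINA6, which encodes the corticosteroid-binding globulin, was the only other one tested (40 counts in ICAM1-high cells, 25 in ICAM1-low cells, adjusted p = 0.424), and 6 had 0 counts in every library, among them the antichymotrypsin gene SERPINA3.

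HNF4A (ENSG00000101076, chromosome 20, 44355700 to 44434596), a nuclear receptor of liver, gut and kidney epithelium, had 873 and 909 counts in ICAM1-high cells and 497 and 456 in ICAM1-low cells. In CPM it was at 46.8 and 49.5 in ICAM1-high cells and at 31.8 and 29.7 in ICAM1-low cells, well apart. HNF4A rose by 0.65 on the log2 scale (SE 0.08, edgeR adjusted p = 6.26e-11) and was called higher under all 12 alternatives, at 0.59 to 0.82. Its antisense gene HNF4A-AS1, named after its values were seen, had 1 count in ICAM1-high cells and 3 in ICAM1-low cells.

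The FOXA genes, which encode pioneer factors that open chromatin in liver and lung endoderm, went opposite ways. FOXA1 (ENSG00000129514, chromosome 14, 37589984 to 37596059) had 250 and 224 counts in ICAM1-high cells and 126 and 147 in ICAM1-low cells, or 13.4 and 12.2 CPM against 8.06 and 9.58 CPM. Both ICAM1-high libraries were above both ICAM1-low libraries. FOXA1 rose by 0.54 (SE 0.14, edgeR adjusted p = 0.000593), a call that DESeq2 did not make (0.53, adjusted p = 0.0507). TTC6, on the opposite strand over a FOXA1 exon, had 28 counts in ICAM1-high cells and 16 in ICAM1-low cells, and the strand setting of the counting is not given, so a small part of the FOXA1 counts is uncertain. FOXA2 (ENSG00000125798, chromosome 20, 22581005 to 22585455) had 288 and 335 counts in ICAM1-high cells and 544 and 573 in ICAM1-low cells. Its level was 15.5 and 18.2 CPM in ICAM1-high cells against 34.8 and 37.4 CPM in ICAM1-low cells, with no overlap. A gene annotated over FOXA2 exons on the same strand, ENSG00000283932, had 0 counts. FOXA2 fell by 1.10 (SE 0.10, edgeR adjusted p = 2.4e-16), at -1.23 to -0.93 under the 12 alternatives. FOXA2 had 1.15 and 1.5 counts per FOXA1 count in ICAM1-high cells and 4.32 and 3.9 in ICAM1-low cells. FOXA3, named after its values were seen, fell by 0.77 (adjusted p = 0.0011), a call that DESeq2 did not make (adjusted p = 0.0536).

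**Figure D4:**
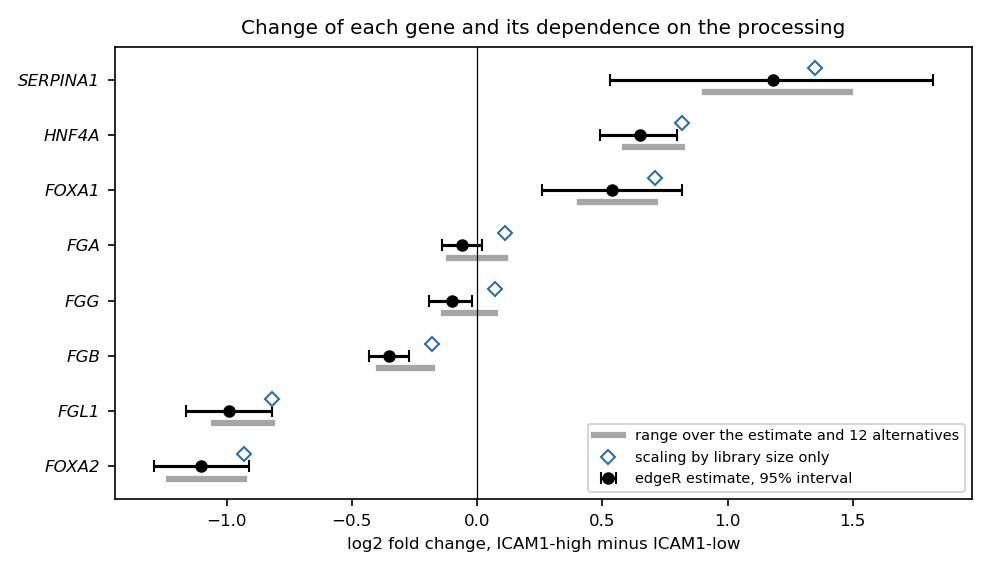
Log2 fold change of each gene, ICAM1-high minus ICAM1-low, with its 95% interval (black), the value with scaling by library size alone (open diamonds) and the range over the estimate and the 12 alternatives (grey). HNF4A, FOXA1 and SERPINA1 lie right of 0 and FGB, FGL1 and FOXA2 left of it, while the ranges of FGA and FGG cross it.

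Among 23 hepatic and endodermal transcription factor genes, which include HNF4A, FOXA1 and FOXA2, 21 were tested, 5 were higher, 5 lower and 11 not called (median 0.12). DESeq2 called 3 higher and 3 lower. CEBPA, a regulator of hepatocyte genes, was at 8.65 ± 0.139 CPM in ICAM1-high cells and 3.69 ± 0.872 CPM in ICAM1-low cells and rose by 1.23. CEBPB, a C/EBP factor of the acute phase, was at 56.9 ± 6.67 CPM in ICAM1-high cells and 102 ± 8.0 CPM in ICAM1-low cells and fell by 0.84. CEBPD, named after its values were seen, was at 19.5 ± 0.585 CPM in ICAM1-high cells and 13.8 ± 1.32 CPM in ICAM1-low cells and rose by 0.49. NR5A2, an orphan nuclear receptor, fell by 0.67.

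Genes of interleukin-6 receptor signalling changed in both directions, 7 higher and 5 lower of 13 tested, with IL6R not called (median 0.10). IL6 itself was at 48.1 ± 2.30 CPM in ICAM1-high cells and 13.6 ± 1.37 CPM in ICAM1-low cells (log2 fold change 1.83). LIFR, the receptor of the related cytokine LIF, was at 80.7 ± 2.91 CPM in ICAM1-high cells and 15.9 ± 0.469 CPM in ICAM1-low cells (2.34), whereas LIF was at 121 ± 4.13 CPM in ICAM1-high cells and 319 ± 3.05 CPM in ICAM1-low cells (-1.40). IL6ST, the shared signalling receptor gp130, fell by 0.83 and the kinase gene JAK1 by 0.66. STAT3, the factor that carries this signal to the chain promoters in hepatocytes, was named after its values were seen. It was at 264 ± 2.60 CPM in ICAM1-high cells and 246 ± 1.99 CPM in ICAM1-low cells (log2 fold change 0.10, adjusted p = 0.0427). That call did not hold in DESeq2 (adjusted p = 0.186). In edgeR it did not hold with DESeq2 size factors (adjusted p = 0.0538) or with no filter beyond 1 count (adjusted p = 0.216). It was also lost when ICAM1-low replicate 1 or 2 (log2 fold change 0.10 and 0.08) or ICAM1-high replicate 2 (0.09) was left out. With DESeq2 size factors in edgeR, 6 genes of this list were higher.

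Of 19 other acute phase genes, 9 were tested, 8 were higher and 1, the ferritin gene FTL, was lower (median 2.58). The complement gene C3 was at 719.7 ± 11.3 CPM in ICAM1-high cells and 245 ± 2.38 CPM in ICAM1-low cells, and CFB, complement factor B, at 28.6 ± 0.771 against 4.78 ± 0.0650 CPM. LBP, the lipopolysaccharide-binding protein gene, rose by 1.87. A2M, a broad protease inhibitor gene, had 55 and 44 counts in ICAM1-high cells and 0 in ICAM1-low cells, at least 27.6-fold higher, taking 3 counts over both ICAM1-low libraries as the floor. Of the 9, 4 passed the filter through ICAM1-high alone, so that they could hardly have come out equal. CRP, HP, ORM1, ORM2, SERPINA3, SAA4 and HAMP had at most 2 counts in all.

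Among plasma proteins and enzymes of the hepatocyte, some others were abundant enough to test and many had few or no counts. Of 19 liver plasma protein genes 9 were tested, 1 was higher and 2 lower (median -0.18), with 1 lower when ICAM1-high replicate 2 or ICAM1-low replicate 1 was left out, in DESeq2 and with library size alone. The adhesion protein gene VTN was at 40.8 ± 1.08 CPM in ICAM1-high cells and 28.9 ± 1.75 CPM in ICAM1-low cells (0.49), and APOH, which encodes β2-glycoprotein I, fell by 0.65. RBP4, a retinol carrier gene, was at 32.2 ± 1.04 CPM in ICAM1-high cells and 37.8 ± 1.63 CPM in ICAM1-low cells (-0.23, adjusted p = 0.0118). That call did not hold when ICAM1-low replicate 1 (adjusted p = 0.138) or ICAM1-high replicate 2 (adjusted p = 0.0523) was left out, in DESeq2 (adjusted p = 0.126) or with library size alone (adjusted p = 0.56). ALB, named after its values were seen, had 46 and 47 counts in ICAM1-high cells and 40 and 24 in ICAM1-low cells. Of 16 hepatocyte enzyme genes 6 were tested, 2 higher and 2 lower (median -0.22). With library size alone 0 were lower, and DESeq2 called 1 higher and 1 lower. Without ICAM1-high replicate 1 there was 1 higher, and without ICAM1-low replicate 1 there was 1 lower. CPS1 of the urea cycle was at 446 ± 14.4 CPM in ICAM1-high cells and 510.4 ± 0.865 CPM in ICAM1-low cells (-0.20). CPS1 was not called with scaling by library size alone (-0.02, adjusted p = 0.649). CES1 fell by 0.24, while TDO2 and HPD rose by 1.01 and 0.68, and DESeq2 called none of these. In edgeR, CES1 was also not called with library size alone (-0.07, adjusted p = 0.506). Nor was HPD with no filter beyond 1 count (0.66, adjusted p = 0.0551). TDO2 was at 0.65 without ICAM1-high replicate 1, and HPD at 0.44 without ICAM1-high replicate 2. CYP1A2, FABP1 and G6PC1 had 0 counts.

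Of 19 coagulation and fibrinolysis genes tested (32 were listed), 10 were lower and 3 higher (median -0.27). Of all genes tested, 29.4% were lower and 30.4% higher. PLAU, which encodes urokinase, was at 78.0 ± 1.98 CPM in ICAM1-high cells and 185 ± 10.5 CPM in ICAM1-low cells and fell by 1.25, the tissue factor pathway inhibitor genes TFPI2 and TFPI by 1.01 and 0.78, and SERPINE2, a thrombin inhibitor gene, by 0.88. F7, the coagulation factor VII gene, named after its values were seen, had 43 and 24 counts in ICAM1-high cells and 101 and 97 in ICAM1-low cells (-1.82, edgeR adjusted p = 1.15e-09). The 3 higher genes, also named after their values were seen, were PLAT (1.74), F3 (0.81) and THBD (0.31).

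**Figure D5:**
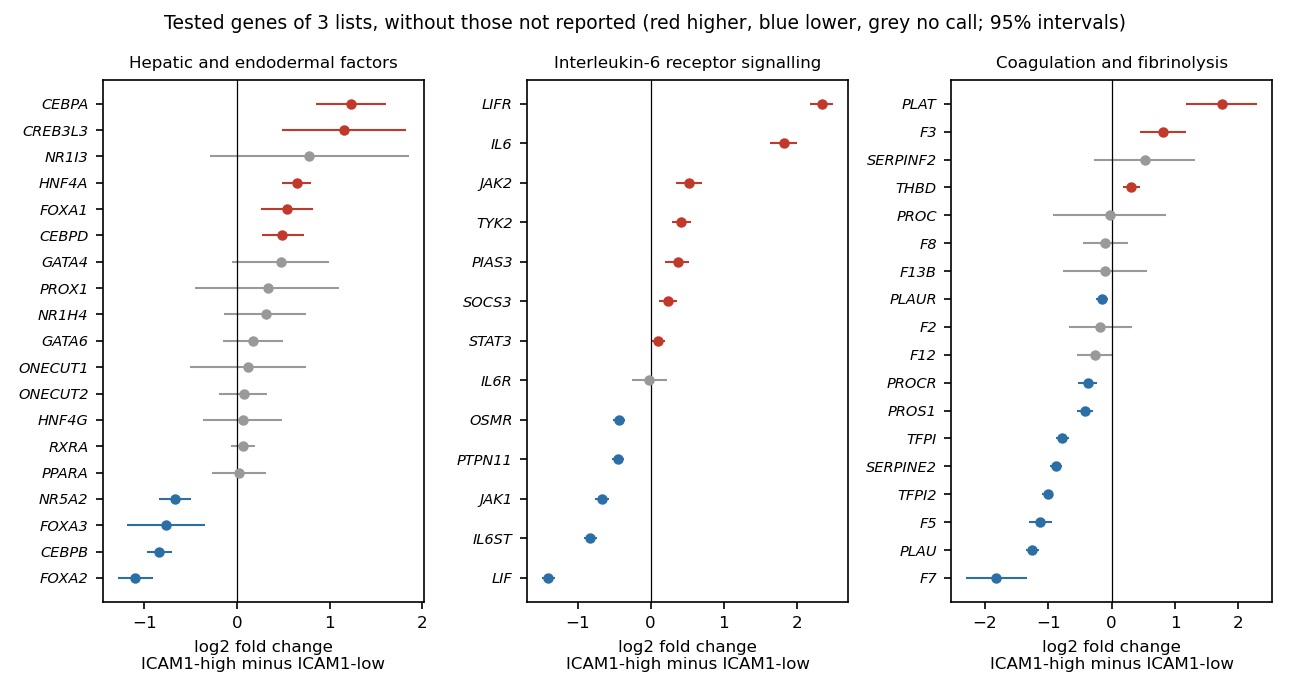
Log2 fold change, ICAM1-high minus ICAM1-low, with 95% intervals, of the tested genes of 3 lists: hepatic and endodermal transcription factors, interleukin-6 receptor signalling, and coagulation and fibrinolysis. Red genes were called higher, blue lower and grey not called. Genes not reported here are left out of the plot. The first 2 lists hold both directions, and the third more blue than red genes.

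Genes for folding and export of secreted glycoproteins, which serve fibrinogen and antitrypsin among others, were 9 higher and 6 lower of 17 (median 0.13), between -0.56 and 0.66. With scaling by library size alone 2 were lower. CALR, a chaperone gene, was at 1032 ± 9.71 CPM in ICAM1-high cells and 651 ± 22.6 CPM in ICAM1-low cells (0.66) and HSPA5, which encodes BiP, rose by 0.47. SYVN1, an endoplasmic reticulum ubiquitin ligase gene, rose by 0.49, whereas its partner SEL1L fell by 0.43 and the chaperone gene ERP29 by 0.56. Among 11 genes for fibrinogen and FGL1 receptors, which include ICAM1 itself, 7 were higher and 3 lower (median 1.23), and 4 passed the filter through ICAM1-high alone. The integrin gene ITGA5 was at 293 ± 9.02 CPM in ICAM1-high cells and 106 ± 3.59 CPM in ICAM1-low cells (1.46), while ITGAV and ITGB1 each fell by 0.76. CDH5, an endothelial cadherin gene, had 64 counts in ICAM1-high cells and 1 in ICAM1-low cells, a ratio of 53.6 (95% counting interval 9.28 to 2149). Of 19 genes with a fibrinogen-like domain or chain, 10 were tested, 4 were higher and 3, all members described above, were lower (median -0.08). Of the 10 tested, 2 passed the filter through ICAM1-high alone. These were MFAP4, not called, and ANGPT2, called higher with 24 counts in ICAM1-high cells and 7 in ICAM1-low cells. Without ICAM1-high replicate 1 there were 5 lower, and without ICAM1-high replicate 2, or in DESeq2, there were 2 higher. ANGPTL4, which encodes a lipoprotein lipase inhibitor, rose by 0.37.

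Lineage genes were set beside the regulators. NKX2-1, the defining factor of lung epithelium, had 5 counts in ICAM1-high cells and 4 in ICAM1-low cells, and of 14 lung epithelial genes 4 were tested, LAMP3 and ABCA3 being higher, the second neither without ICAM1-low replicate 2 (adjusted p = 0.213) nor in DESeq2 (0.19, adjusted p = 0.121). LAMP3, of lamellar bodies, had 211 counts in ICAM1-high cells and 8 in ICAM1-low cells and passed the filter through ICAM1-high alone. The surfactant genes SFTPA1, SFTPA2, SFTPB, SFTPC and SFTPD had at most 10 counts in all. Of 14 gastrointestinal genes 7 were tested, 4 lower and 1 higher (median -0.70), with 3 higher when ICAM1-low replicate 1 was left out and 2 without replicate 2 or with library size alone. DESeq2 called 2 lower and 2 higher, without VIL1 (adjusted p = 0.0888) and LGALS4 (adjusted p = 0.249), and LGALS4 was also lost with library size alone (adjusted p = 0.0596) and when ICAM1-high replicate 1 or 2 or ICAM1-low replicate 2 was left out (adjusted p = 0.12 to 0.412). LGALS4, with 20 counts in ICAM1-high cells and 38 in ICAM1-low cells, passed the filter through ICAM1-low alone. CDX2, which was not called, passed it through ICAM1-high alone. The mucin gene MUC5AC was at 612 ± 4.04 CPM in ICAM1-high cells and 992 ± 12.6 CPM in ICAM1-low cells (-0.70) and CDH17, an intestinal cadherin gene, at 39.7 ± 2.57 against 101 ± 1.95 CPM (-1.35), while TFF1, a trefoil peptide gene, rose by 1.39.

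Genes whose pattern over the 4 libraries lay nearest to that of 3 members were sought among the 11201 genes that averaged 5 CPM or more, as a description. The Euclidean distance was taken on log2 CPM centred per gene, so that a gene's level does not enter. For FGB the nearest genes were ANXA5, COG1 and GDI2 (distance 0.00577 to 0.0127), for HNF4A they were SBF1, CSTF1 and RNPC3 (0.0214 to 0.0274), and for SERPINA1 they were PPT2, STARD9 and ZCCHC17 (0.207 to 0.213).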

How the data were processed

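The authors' deposited table holds raw gene counts, whole numbers, for 4 libraries whose columns match the sample descriptions. Library preparation used Trizol RNA and a SMARTer mRNA kit, per the labels' protocols. FastQC 0.10.1 and GRCh38 are named, per the submitters' processing notes. Which aligner, counter and strand setting were used is not given in the sources used here. All 58735 identifiers are in GENCODE release 29, the source of positions and exon lengths, and 58207 had a symbol.

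From these counts, subsets were compared in edgeR 4.0.16 (R 4.3.3) with the quasi-likelihood test, robust estimation, TMM scaling (factors 1.059 and 1.065 for ICAM1-high, 0.9395 and 0.9439 for ICAM1-low) and the default expression filter (minimum count 10, minimum total 15), tested first on simulated data. A log2 fold change is the log2 level of ICAM1-high minus that of ICAM1-low. The SE is the fold change over the root of its F statistic. A floor of 3 counts is 0.161 to 0.196 CPM per library. Libraries of a subset differed by more than sampling noise (chi-square per degree of freedom 3.07 and 1.86).

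The members and gene lists were chosen with earlier results of these data known. Named genes are the members, genes of each list, at most 5, taken by smallest adjusted p, and the check genes. Some genes that this rule names are not reported here. Alternatives were 3 other scalings, 2 other filters, DESeq2 1.42.0, limma-voom (limma 3.58.1), the replicate number as a block, and leaving out each library. A library left alone in its subset was assumed to vary like those of the other.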

Additional observations from a re-analysis of the deposited data

How the results depend on the processing

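FGB, FGL1, HNF4A and FOXA2 kept their direction and call under all 12 alternatives. Scaling by library size alone moved fold changes by a median of 0.17 and gave 3124 lower genes in place of 4771, so that 68.3% of called genes were higher in place of 50.8%. It turned FGA to 0.11 and FGG to 0.07. TMM factors from genes at 1 CPM or more in each subset left FGG at -0.07 (adjusted p = 0.104). DESeq2 called 1 of the members higher in place of 3, with FGG at -0.11, SERPINA1 at 1.17 and FOXA1 at 0.53. Their cause was not tested. Leaving out single libraries gave -0.11 to -0.02 for FGA, -0.13 to -0.09 for FGG and 0.91 to 1.49 for SERPINA1, and ALB, with few counts, ranged from -0.04 to 0.67. Of 360 list counts under alternatives, 323 stayed within 1.5 times. The replicate numbers are only shared labels (correlation of deviations 0.0417), and with the number as a block 4976 genes were higher and 4836 lower, with the calls of the 8 genes as without it. SERPINA1, with 38 counts in ICAM1-low, is the member whose depth limits it most.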
